A study of Rattus norvegicus with 14 samples.

Results

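The genes described here were listed for the proton-secreting cells of the epididymis, the clear and narrow cells among the principal cells of the duct. They were taken by symbol from a list of 10 genes, and 9 of the 10 had a transcript cluster of their own among the 18166 genes of the array, each with 1 cluster. The genes are the transcription factor Foxi1, the proton pump subunits Atp6v0d2, Atp6v1b1, Atp6v0a4 and Atp6v1g3, the anion exchangers Slc4a9 and Slc26a4, the ammonia channel Rhcg and the membrane protein Hepacam2. Atp6v1c2, the remaining gene of the list, had no cluster of its own and was not analysed here. The tissue was the whole epididymis of Sprague-Dawley rats, pooled before RNA extraction, with 1 RatGene 2.0 ST array for each of 14 pools. Day 7 had 3 pools, day 18 had 4, day 28 had 4 and day 60 had 3. The labels name no treatment. The pups of days 7 and 18 were still with lactating mothers, while the rats of days 28 and 60 had free access to food and water. Age and this difference in feeding cannot be told apart at day 28 against day 18, or in comparisons that span that step. The number of animals in a pool is not given in the sources used here.

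Clear and narrow cells acidify the fluid of the duct with a vacuolar proton pump that they carry in the apical membrane and in vesicles below it. The pump has a cytosolic V1 sector, which splits ATP, and a membrane V0 sector, through which protons pass. Several subunits exist as a widely expressed form and as a form restricted to a few acid-secreting cell types, among them the intercalated cells of the kidney and the clear and narrow cells of the epididymis. In mice Foxi1 is required for the expression of restricted pump subunits in these cells, and an acidic lumen keeps stored spermatozoa quiescent.

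Values are log2 signals, so a difference of 1 is a doubling of signal, and levels of different genes cannot be set against each other because each probe set has its own response. The level under which a signal was treated as background was 4.92, the 95th percentile of the mean signals of 1344 olfactory and vomeronasal receptor genes. The array medians over all clusters ran from 5.21 to 5.42, with the highest in replicate 2 of day 28 and the next at 5.32. In whole tissue, more cells of a type and more RNA per cell cannot be told apart. One pool of day 28, replicate 2, differed from the rest of its age. In it 63.2% of all genes lay below the mean of the other day 28 pools, where this share ran from 41.5% to 55.5% in the rest of the arrays. The same held for 6 of the 7 members that changed with age, by a median of 0.23. The member count does not set this pool apart, with 7 of 7 in replicate 2 of day 60 and 6 of 7 in replicate 1 of day 7 and replicate 4 of day 18. Member differences that involve day 28 are also given without replicate 2 of day 28, as are counts over gene lists where they differ.

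The signal of whole tissue does not show which cells a transcript came from. Of the 9 members 7 lay above the background level in every pool from day 18 on. Slc26a4 lay below it in 14 of 14 pools and Slc4a9 ranged from 4.80 to 5.36. The joint test over the 4 ages called the same 7 members, with adjusted p from 3.17e-13 for Rhcg to 5.17e-09 for Atp6v1g3 (limma F test, Benjamini-Hochberg over all genes), where 60.4% of all genes were called. It did not call Slc4a9 (adjusted p = 0.137) or Slc26a4 (adjusted p = 0.729).

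**Figure D1:**
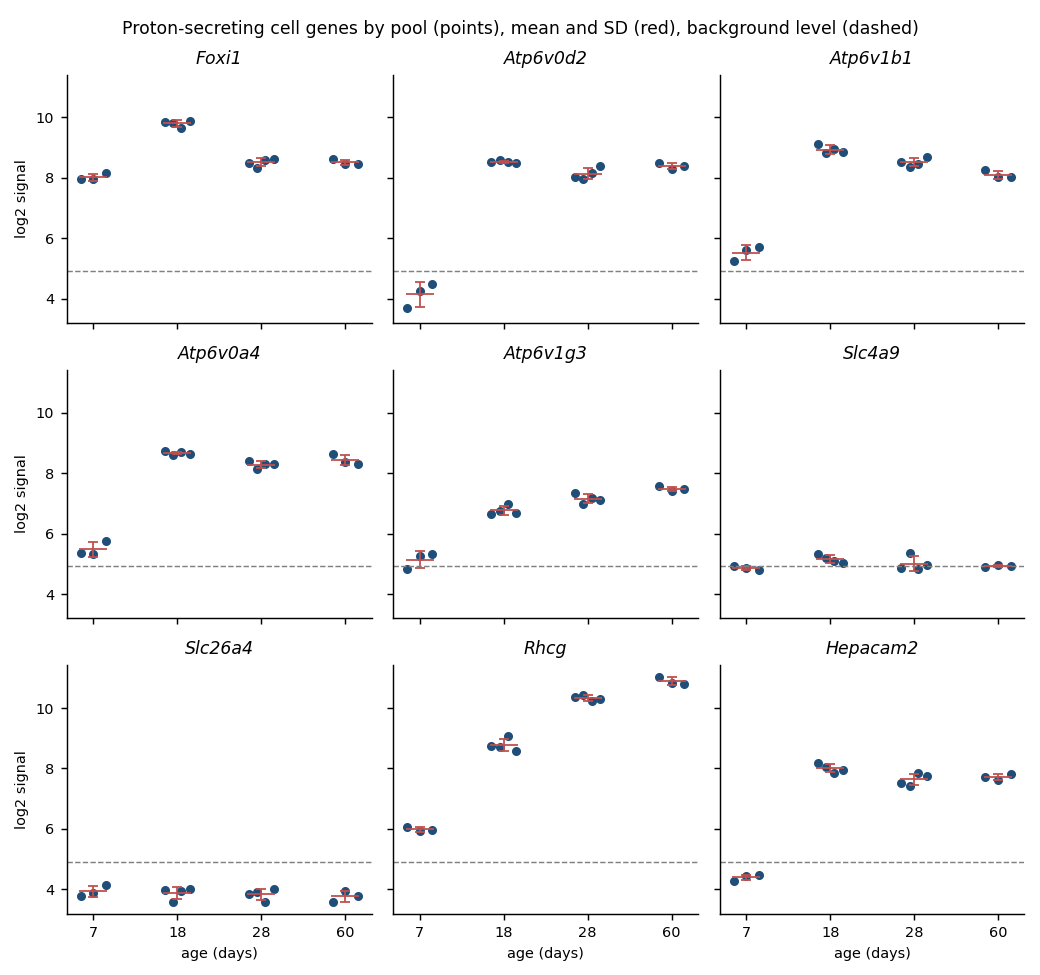
Log2 signal of the 9 genes against age in days, with each pool as a blue point, the mean and SD of each age in red and the background level of 4.92 as a dashed line. Foxi1 is highest at day 18, Rhcg goes up at every age to 10.90 at day 60, and Slc26a4 lies below the dashed line in every pool.

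Most members rose between day 7 and day 18. Of the 9 members 7 rose and 0 fell, with a median difference of 2.79 on the log2 scale over all 9, where 17.4% of all genes were called higher, 20.7% were called lower and the median difference over all genes was 0.012. Among the 5 of these with a day 7 signal above background in at least 1 pool, the rise ranged from 1.64 for Atp6v1g3, with 2 of 3 day 7 pools above background, to 3.41 for Atp6v1b1. For Atp6v0d2 and Hepacam2, below background in all day 7 pools, it was at least 3.61 and 3.09. After day 18 called members moved in both directions. Between day 18 and day 28 2 of the 9 rose and 4 fell, where 10.5% of all genes were called higher and 14.3% lower. Between day 28 and day 60 1 rose and 1 fell, near the shares of all genes called, 13.8% and 11.2%. Over the whole span from day 7 to day 60 the same 7 rose and 0 fell, where 21.7% of all genes were called higher and 27.6% lower. Set against day 18, day 60 had 2 of the 9 higher (Atp6v1g3 and Rhcg) and 3 lower (Foxi1, Atp6v1b1 and Hepacam2), where 19.0% and 22.1% of all genes were called.

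**Figure D2:**
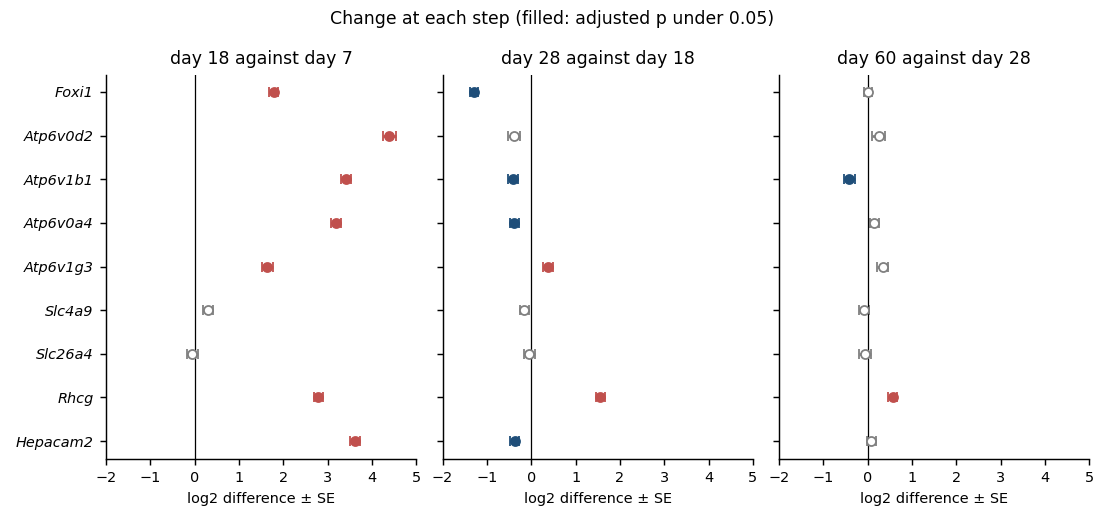
Log2 difference between neighbouring ages for each gene (later minus earlier age) with its SE. Filled points had an adjusted p under 0.05, red for higher and blue for lower at the later age, and open points did not. All 7 called points of the left panel lie to the right of 0, while the middle panel has 4 called points to the left and 2 to the right.

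Foxi1, a forkhead transcription factor, was above background in every pool, and it was highest at day 18. Its log2 signals were 7.94, 7.95 and 8.16 at day 7, 9.86, 9.82, 9.64 and 9.87 at day 18, 8.49, 8.33, 8.60 and 8.62 at day 28, and 8.62, 8.46 and 8.46 at day 60. The day 18 pools lay above all others, and the day 7 pools lay below all others. Foxi1 rose by 1.78 ± 0.094 (log2 difference ± SE, 3.44-fold) at day 18 against day 7 (adjusted p = 2.37e-09, limma's moderated test, Benjamini-Hochberg over all genes). It then fell by 1.29 ± 0.087 at day 28 against day 18 (adjusted p = 7.79e-08), which ranked 53rd from the bottom among the 18166 differences of that step. Without replicate 2 of day 28 this difference was -1.23. Age and feeding cannot be told apart at this step. Day 60 and day 28 did not differ beyond their spread, with a difference of -0.0011 (95% interval -0.20 to 0.20) and of -0.060 without replicate 2 of day 28. At day 60 Foxi1 was still 0.49 ± 0.10 higher than at day 7 (adjusted p = 0.000749).

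Atp6v0d2, the restricted form of the d subunit of the V0 sector, was at background in young pups. Its signals were 3.69, 4.24 and 4.48 at day 7, 8.52, 8.59, 8.52 and 8.49 at day 18, 8.03, 7.97, 8.17 and 8.39 at day 28, and 8.49, 8.29 and 8.39 at day 60. The 3 pools of day 7 lay below background and every later pool lay far above it. The rise to day 18 was at least 12.2-fold, counted from the background level (adjusted p = 1.91e-11). The difference at day 28 against day 18 was -0.39 ± 0.14 and did not pass the test (adjusted p = 0.0516, difference -0.33 without replicate 2 of day 28), although the pools did not overlap. It passed with a filter at the median gene level (adjusted p = 0.0178), an intensity trend and robust hyperparameters (0.0211), only the pools of both ages (0.0185) or quantile normalization (0.0492). It also passed without replicate 4 of day 28 (adjusted p = 0.0273), replicate 1 of day 7 (0.00933) or replicate 3 of day 7 (0.0274). Day 60 against day 28 gave 0.25 ± 0.15 (adjusted p = 0.251, difference 0.19 without replicate 2 of day 28), with overlapping pools.

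Macrophages also express Atp6v0d2, so their markers are given beside it. Of the 11 macrophage markers 2 rose and 2 fell at day 18 against day 7, with Ptprc higher by 1.14 and Cd14 lower by 0.78 (log2 difference -0.78), where 17.4% of all genes were called higher and 20.7% lower. Their summed signal on the linear scale was 4394 to 5075 at day 18, against 3732 to 4225 at day 7. Such a sum gives most weight to the probe sets with the highest signals and does not measure the number of cells. Of the same 11, 1 rose and 5 fell at day 28 against day 18 (10.5% and 14.3% of all genes), and 8 rose and 0 fell at day 60 against day 28 (13.8% and 11.2% of all genes), with 7 and 0 without replicate 2 of day 28. All 11 had means above the background level at every age. The part of macrophages in the Atp6v0d2 signal was not tested.

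Atp6v1b1, the restricted form of the B subunit that takes part in ATP splitting in the V1 sector, had its highest level at day 18 and then fell at both later steps. Its signals were 5.25, 5.60 and 5.71 at day 7, 9.11, 8.81, 8.97 and 8.84 at day 18, 8.53, 8.36, 8.47 and 8.69 at day 28, and 8.25, 8.02 and 8.02 at day 60. No pools of neighbouring ages overlapped. It rose by 3.41 ± 0.12 at day 18 against day 7 (10.6-fold, adjusted p = 2.58e-11). It fell by 0.42 ± 0.11 at day 28 against day 18 (adjusted p = 0.0119) and, without replicate 2 of day 28, by 0.37 (difference -0.37). It fell by 0.41 ± 0.12 at day 60 against day 28 (adjusted p = 0.0203, difference -0.46 without replicate 2 of day 28). The last call ended without replicate 4 of day 28 (adjusted p = 0.056), replicate 2 of day 60 (0.0763) or replicate 3 of day 60 (0.0775).

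Atp6v0a4, the restricted form of the a subunit that lines the proton path of the V0 sector, had its highest mean at day 18. Its signals were 5.36, 5.31 and 5.75 at day 7, 8.72, 8.61, 8.68 and 8.65 at day 18, 8.39, 8.13, 8.30 and 8.31 at day 28, and 8.63, 8.36 and 8.31 at day 60. The day 60 pools overlapped those of day 18 and those of day 28. Atp6v0a4 rose by 3.19 ± 0.11 at day 18 against day 7 (9.15-fold, adjusted p = 2.35e-11) and fell by 0.39 ± 0.10 at day 28 against day 18 (adjusted p = 0.0122, difference -0.34 without replicate 2 of day 28). Day 60 against day 28 gave 0.15 ± 0.11 (adjusted p = 0.354, difference 0.10 without replicate 2 of day 28).

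Atp6v1g3, the restricted form of the G subunit in the stalk of the V1 sector, had its highest level at day 60. Its signals were 4.81, 5.26 and 5.33 at day 7, 6.66, 6.76, 6.98 and 6.68 at day 18, 7.35, 6.98, 7.17 and 7.10 at day 28, and 7.56, 7.42 and 7.48 at day 60. The pools of days 28 and 18 overlapped at 6.98, and the day 60 pools lay above all others. It rose by 1.64 ± 0.13 at day 18 against day 7 (3.11-fold, adjusted p = 9.93e-08) and by 0.38 ± 0.12 at day 28 against day 18 (adjusted p = 0.0264, difference 0.44 without replicate 2 of day 28). The call at day 28 ended without replicate 1, 2 or 4 of day 18 (adjusted p = 0.0737, 0.0566 and 0.0694) and without replicate 1 or 3 of day 28 (0.0778 and 0.0556). Day 60 against day 28 gave 0.34 ± 0.13 and missed the threshold (adjusted p = 0.064). Without replicate 2 of day 28 the difference was 0.28 (adjusted p = 0.143), and it passed without replicate 1 of day 28 (0.0384) or replicate 1 of day 7 (0.0273). Day 60 against day 18 gave a rise of 0.72 ± 0.13 (adjusted p = 0.000308).

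Hepacam2, a membrane protein of the immunoglobulin family that marks intercalated cells in the mouse kidney, was at background in the youngest pups. Its signals were 4.28, 4.43 and 4.46 at day 7, 8.17, 8.05, 7.86 and 7.96 at day 18, 7.53, 7.44, 7.84 and 7.75 at day 28, and 7.71, 7.62 and 7.83 at day 60. The 3 day 7 pools were below background and the day 18 pools lay above all others. The rise at day 18 against day 7 was at least 8.52-fold, counted from the background level (fitted log2 difference 3.62 ± 0.11, adjusted p = 5.87e-12). Hepacam2 fell by 0.37 ± 0.099 at day 28 against day 18 (adjusted p = 0.0134, difference -0.30 without replicate 2 of day 28), and day 60 against day 28 gave 0.080 ± 0.11 (adjusted p = 0.641, difference 0.0125 without replicate 2 of day 28). Day 60 against day 18 gave a fall (-0.29 ± 0.11, adjusted p = 0.042) whose call ended without replicate 1, 2 or 4 of day 18 (adjusted p = 0.114, 0.082 and 0.0569), replicate 1 or 2 of day 60 (0.0924 and 0.152) or replicate 2 of day 7 (0.0519).

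Rhcg, a channel for ammonia, rose at every step. Its signals were 6.07, 5.93 and 5.97 at day 7, 8.75, 8.70, 9.07 and 8.57 at day 18, 10.35, 10.44, 10.24 and 10.29 at day 28, and 11.04, 10.83 and 10.81 at day 60. No pool of an age reached the values of the next age. Rhcg rose by 2.79 ± 0.11 at day 18 against day 7 (6.90-fold, adjusted p = 7.88e-11). It rose by a further 1.56 ± 0.099 at day 28 against day 18 (adjusted p = 3.87e-08, 1.52 without replicate 2 of day 28) and by 0.56 ± 0.11 at day 60 against day 28 (adjusted p = 0.00145, 0.60 without replicate 2 of day 28). Over the whole span it was 30.1-fold higher at day 60 than at day 7 (adjusted p = 1.24e-13).

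Promoter sequences are shown for 4 members, a pair that was highest at day 18 and fell by day 28 (Atp6v1b1 and Hepacam2) and a pair that rose further (Atp6v1g3 and Rhcg), because Foxi1 is a forkhead factor and forkhead factors bind a core of TAAACA. They run from 250 bases before to 50 bases after the start site used in the RefSeq promoter table on the rat build GRCr8. For Atp6v1g3, Hepacam2 and Rhcg this site lies inside the RefSeq gene and not at its outermost end. The windows lie on chr4:117781194-117781493 (plus strand) for Atp6v1b1, chr4:32435463-32435762 (minus) for Hepacam2, chr13:52362082-52362381 (plus) for Atp6v1g3 and chr1:142965113-142965412 (minus) for Rhcg. Each is written 5′ to 3′ along the gene, and capitals mark the core TAAACA or its reverse complement TGTTTA.
Atp6v1b1: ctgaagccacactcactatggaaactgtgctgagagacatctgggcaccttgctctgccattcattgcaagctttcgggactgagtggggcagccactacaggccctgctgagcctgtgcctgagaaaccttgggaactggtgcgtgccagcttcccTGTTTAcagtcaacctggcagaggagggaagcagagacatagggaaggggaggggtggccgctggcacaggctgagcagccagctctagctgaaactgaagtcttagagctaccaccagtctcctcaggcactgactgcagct
Hepacam2: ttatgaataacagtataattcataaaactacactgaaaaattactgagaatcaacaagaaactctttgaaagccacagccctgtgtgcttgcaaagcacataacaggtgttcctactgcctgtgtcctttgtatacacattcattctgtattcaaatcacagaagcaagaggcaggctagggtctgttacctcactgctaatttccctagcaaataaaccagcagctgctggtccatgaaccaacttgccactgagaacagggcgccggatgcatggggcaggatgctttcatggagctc
Atp6v1g3: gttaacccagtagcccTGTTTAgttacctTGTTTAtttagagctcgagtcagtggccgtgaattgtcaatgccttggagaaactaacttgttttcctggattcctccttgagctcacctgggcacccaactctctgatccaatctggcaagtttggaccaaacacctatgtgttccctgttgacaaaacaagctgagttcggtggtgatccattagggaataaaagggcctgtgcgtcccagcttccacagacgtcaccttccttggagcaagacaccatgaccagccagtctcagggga
Rhcg: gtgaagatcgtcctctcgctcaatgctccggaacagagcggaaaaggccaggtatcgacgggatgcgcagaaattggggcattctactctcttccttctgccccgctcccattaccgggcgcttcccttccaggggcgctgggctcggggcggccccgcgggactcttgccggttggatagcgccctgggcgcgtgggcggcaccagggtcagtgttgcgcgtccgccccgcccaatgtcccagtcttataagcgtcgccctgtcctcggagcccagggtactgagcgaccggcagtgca
Of the 9 members 8 had a promoter in the RefSeq table, and Atp6v0d2 had none. The core, searched on both strands, was found in 2 of the 8, Atp6v1b1 and Atp6v1g3, and in 13.7% of the promoters of the same length of 27457 genes. The match of Atp6v1b1 begins 93 bases before the start site, and those of Atp6v1g3 begin 234 and 221 bases before it. The longer form GTAAACA, with reverse complement TGTTTAC, contains the core and was found in 1 of the 8, at the same place in Atp6v1b1, against 3.76% of all promoters. The shown pairs with different later courses each held 1 promoter with a match and 1 without. Foxi1 and Atp6v0a4, not shown, were also highest at day 18 and fell by day 28, and their promoters held no match. A match in these letters is a description of the sequence and not a measured binding site, and the shown promoters of Hepacam2 and Rhcg have no capitals.

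The anion exchangers passed no test between neighbouring ages in the fit of all pools with equal weights. Slc4a9, an exchanger of intercalated cells that is also called AE4, had signals of 4.94, 4.86 and 4.80 at day 7, 5.31, 5.21, 5.09 and 5.03 at day 18, 4.85, 5.36, 4.84 and 4.95 at day 28, and 4.91, 4.95 and 4.92 at day 60. The 4 pools of day 18 lay above the 3 of day 7, but the difference of 0.29 ± 0.11 did not pass the test (adjusted p = 0.0572). It passed with array weights (0.28, adjusted p = 0.0203) or only the pools of both ages (0.0275). Replicate 2 of day 28 held the highest value of all. Without that pool Slc4a9 was called higher at day 18 than at day 7 (adjusted p = 0.00738, and 0.0474 without replicate 4 of day 18) and lower at day 28 than at day 18 (difference -0.27, adjusted p = 0.0204). Slc26a4, which encodes pendrin, an exchanger of chloride, iodide and bicarbonate, ranged from 3.57 to 4.13 over the 14 pools and stayed below background, with day 60 against day 7 at -0.16 (95% interval -0.47 to 0.14).

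Members were set against Foxi1 within each array, by testing the change of the difference between the 2 signals. At day 18 against day 7 Atp6v0d2 gained at least 1.83 on Foxi1 and Hepacam2 at least 1.31, counted from the background level (adjusted p = 7.09e-10 and 8.34e-10 in the fit). Atp6v1b1 gained 1.63 ± 0.11, Atp6v0a4 gained 1.41 ± 0.090 and Rhcg gained 1.01 ± 0.15. Atp6v1g3, near background at day 7, changed by -0.15 ± 0.14 relative to Foxi1 (adjusted p = 0.451). The anion exchangers, near or below background, lost on Foxi1 as it rose. The changes were -1.49 ± 0.16 for Slc4a9 (adjusted p = 3.43e-06) and -1.83 ± 0.15 for Slc26a4 (adjusted p = 2.13e-07). At day 28 against day 18 each of the 6 members other than the anion exchangers gained on Foxi1, which fell most of the 9. The fall of Foxi1 ranked 53rd from the bottom among 18166 genes, so a gain on it at this step is not particular to the members. A gain here includes a fall smaller than that of Foxi1. The gains were 0.87 ± 0.098 for Atp6v1b1, 0.90 ± 0.083 for Atp6v0a4, 0.90 ± 0.11 for Atp6v0d2, 0.91 ± 0.081 for Hepacam2, 1.67 ± 0.13 for Atp6v1g3 and 2.84 ± 0.14 for Rhcg, with adjusted p from 3.69e-09 to 4e-05. The 4 smallest of these gains lie within 1 SE of each other. Slc26a4, below background, and Slc4a9, near it, also passed, with gains of 1.24 ± 0.14 and 1.13 ± 0.15 (adjusted p = 1.31e-05 and 5.59e-05). Their gains were 1.16 and 0.95 without replicate 2 of day 28. Without replicate 2 of day 28 the 6 gains ran from 0.86 for Atp6v1b1 to 2.75 for Rhcg, and all passed. At day 60 against day 28 Rhcg gained 0.56 ± 0.15 (adjusted p = 0.0144) and Atp6v1b1 lost 0.41 (change -0.41 ± 0.11, adjusted p = 0.0108), with changes of 0.66 and -0.40 without replicate 2 of day 28, while the other 4 passed no test. In the fit that held these differences 38.2%, 24.8% and 25.0% of all tested features were called at the 3 steps, 41.1% at day 60 against day 18 and 49.3% at day 60 against day 7. Nearly all of these features are single genes with their own changes. The share of all genes that would be called when set against Foxi1 was not computed.

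The pump subunits among the members, Rhcg and Slc4a9 were also each set against a relative in the same way. For the pump subunits this is the widely expressed form. In 5 of 6 pairs the member changed more over the first step. At day 18 against day 7 the change of Atp6v0d2 exceeded that of Atp6v0d1 by at least 3.51, counted from the background level (adjusted p = 9.51e-12 in the fit), and that of Atp6v1b1 exceeded that of Atp6v1b2 by 2.99 ± 0.13 (adjusted p = 2.39e-10). Atp6v0a4 exceeded Atp6v0a1 by 2.60 ± 0.10 and Atp6v1g3 exceeded Atp6v1g1 by 1.40 ± 0.16 (adjusted p = 5.29e-06). Rhcg exceeded Rhbg, a related ammonia channel, by 2.60 ± 0.16. For Slc4a9 and Slc4a2, a widely expressed anion exchanger, the change differed by 0.26 (95% interval -0.025 to 0.54, adjusted p = 0.145, and 0.045 without replicate 2 of day 28). The widely expressed forms moved little at this step, with rises of 0.59 ± 0.082 for Atp6v0a1, 0.42 ± 0.089 for Atp6v1b2 and 0.24 ± 0.086 for Atp6v1g1, and 0.10 ± 0.069 for Atp6v0d1, which did not pass (adjusted p = 0.262).

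Later changes differed between the pairs. At day 28 against day 18 the a4 form lost 0.73 against a1 (change -0.73 ± 0.097, adjusted p = 6.44e-05) and the d2 form lost 0.55 against d1 (change -0.55 ± 0.13, adjusted p = 0.00515). The B1 form changed by -0.26 ± 0.12 against B2 at that step (adjusted p = 0.136). At day 60 against day 28 it lost 0.78 (change -0.78 ± 0.13, adjusted p = 0.000457), with a rise of Atp6v1b2 by 0.37 ± 0.089 beside the fall of Atp6v1b1. Rhcg gained a further 1.16 ± 0.14 on Rhbg at day 28 against day 18 (adjusted p = 3.12e-05). Without replicate 2 of day 28 these changes were -0.74 for a4, -0.50 for d2, -0.23 and -0.81 for B1 and 1.21 for Rhcg, with the same calls. Slc4a9 was then called to gain 0.35 on Slc4a2 at day 60 against day 28 (adjusted p = 0.0238). Over the whole span all 6 members of these pairs ended above day 7 relative to their relatives, from 0.45 ± 0.14 for Slc4a9 (adjusted p = 0.0144) to 4.12 ± 0.17 for Rhcg (adjusted p = 3.1e-11). The Slc4a9 call came with a fall of Slc4a2 (-0.39 ± 0.10) and not a called rise of Slc4a9, and it ended without replicate 3 of day 7 (adjusted p = 0.0678), without replicate 3 of day 60 (0.0559), or with an intensity trend and robust hyperparameters (0.0525).

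**Figure D3:**
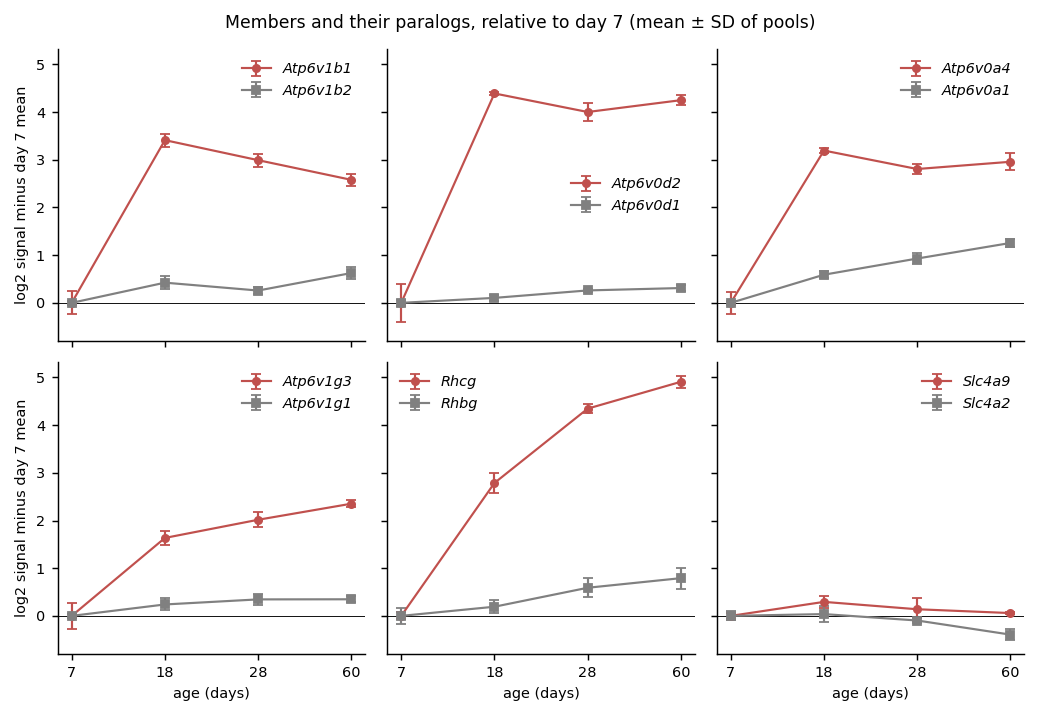
Log2 signal relative to the day 7 mean against age in days, for each member (red circles) and its relative (grey squares), as mean ± SD of the pools. The red line leaves the grey one by day 18 in 5 of the 6 panels, and Slc4a9 stays within 0.29 of its day 7 mean.

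Most cells use the other subunits of the pump for their lysosomes and endosomes. Of 20 listed subunits and accessory proteins 19 had a value. At day 18 against day 7 11 of the 19 rose and 0 fell, with a median difference of 0.27, where 17.4% of all genes were called higher and 20.7% lower. The largest rises were those of Atp6ap2, an accessory protein also known as the prorenin receptor (0.79 ± 0.071), and Atp6v0e1 (0.69 ± 0.070). At day 28 against day 18 4 rose and 2 fell with a median of 0.11 (10.5% and 14.3% of all genes), with Atp6v1d higher by 0.38 and Atp6ap2 lower (-0.72 ± 0.066). In the last step 12 rose and 1 fell with a median of 0.30 (13.8% and 11.2% of all genes), led by Atp6v0e2 (0.57 ± 0.11) and Atp6v1a, the catalytic A subunit (0.48 ± 0.079). Over the whole span 15 rose and 0 fell, where 21.7% of all genes were called higher and 27.6% lower. None of the 19 rose by as much as the smallest rise among the 4 restricted subunits, which was 2.35 ± 0.13 for Atp6v1g3. The counts without replicate 2 of day 28 were 12 and 0, 4 and 1, and 11 and 1 at the 3 steps, and 15 and 1 over the whole span. Of 10 measured assembly factors and regulators 2 rose and 1 fell at day 18 against day 7, near the shares of all genes, with Ccdc115 higher by 0.33 and Tldc2 lower (-0.51 ± 0.13). At day 28 against day 18 1 rose and 1 fell (10.5% and 14.3% of all genes). Vma21, needed to assemble the V0 sector, rose by 0.56 ± 0.078, and Rogdi fell from a mean of 9.02 to 8.62. In the last step 2 rose and 0 fell (13.8% and 11.2% of all genes), and over the whole span 6 rose and 1 fell (21.7% and 27.6%).

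**Figure D4:**
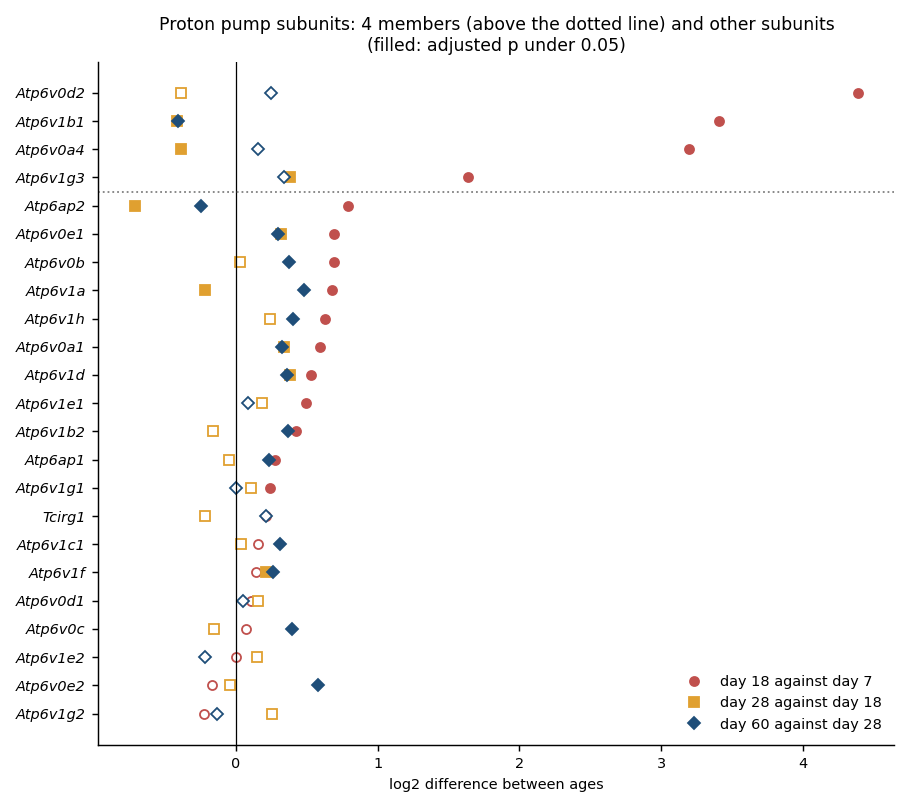
Log2 differences of the proton pump subunits at the 3 steps, with the 4 members above the dotted line and 19 other subunits below it. Filled symbols had an adjusted p under 0.05. The red circles of the members lie between 1.64 and 4.39 at day 18 against day 7 (fitted values, with Atp6v0d2 below background at day 7), where the highest of the others is at 0.79.

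Listed acid-base transporters and enzymes changed in both directions, and which cells their signals came from was not tested. Of 30 listed acid-base genes 29 had a value, and 9 rose and 4 fell at day 18 against day 7, with a median difference of 0.12, where 17.4% of all genes were called higher and 20.7% lower. The largest rise was that of the anion exchanger Slc26a3 (2.76 ± 0.087), followed by Slc26a7, an anion exchanger of intercalated and parietal cells (1.21 ± 0.22), while Car9, a carbonic anhydrase, was lower (-1.33 ± 0.13). At day 28 against day 18 9 rose and 2 fell with a median of 0.13 (10.5% and 14.3% of all genes). Slc26a7 rose by 1.98 ± 0.21 and the sodium-proton exchanger Slc9a2 by 1.21 ± 0.13. In the last step 13 rose and 1 fell with a median of 0.26 (13.8% and 11.2% of all genes), led by the sodium-proton exchanger Slc9a3 (1.86 ± 0.20) and the membrane-bound carbonic anhydrase Car4 (0.97 ± 0.11). Car12, a carbonic anhydrase of cell membranes, rose at all 3 steps by 0.59, 0.92 and 0.39. Car2, the cytosolic carbonic anhydrase that supplies protons to the pump, passed no test, with means of 7.58, 7.23, 7.37 and 7.25 in order of age. Adcy10, the bicarbonate-sensing adenylyl cyclase, lay below background in every pool. The counts of the list without replicate 2 of day 28 were 8 and 4, 8 and 2, and 12 and 1.

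Other genes are known from ionocytes and intercalated cells in several organs. Of 20 listed genes 17 had a value, and 8 rose and 5 fell at day 18 against day 7, with a median difference of 0.33, where 17.4% of all genes were called higher and 20.7% lower. Stap1, a signalling adaptor, rose by 4.32 ± 0.13 and Bsnd, the barttin subunit of chloride channels, by 2.70 ± 0.14. Moxd1 (-1.03 ± 0.11) and the sodium-potassium-chloride cotransporter Slc12a2 (-0.62 ± 0.10) were the largest falls. At day 28 against day 18 2 rose and 7 fell with a median of 0.027 (10.5% and 14.3% of all genes), and the 7 included the transcription factors Dmrt2 (-1.24 ± 0.091) and Tfcp2l1 (-0.82 ± 0.098), the receptor kinase Kit (-0.98 ± 0.092) and the chloride channel Cftr (-1.68 ± 0.11). At day 60 against day 28 2 rose and 5 fell with a median of -0.059 (13.8% and 11.2% of all genes), with Cftr higher by 0.59 ± 0.12 and Moxd1 lower (-0.56 ± 0.11). Of 9 measured genes of apical endocytosis, 3 rose and 1 fell at day 18 against day 7, 2 rose and 2 fell at day 28 against day 18, and 6 rose and 1 fell at day 60 against day 28, with the scavenger receptor Lrp2 higher by 1.46 ± 0.18 at day 28 against day 18 and by 0.86 ± 0.19 at day 60 against day 28. The shares of all genes called at these steps are those given above for the ionocyte and intercalated cell genes. Principal cells also express genes of the endocytosis list. Without replicate 2 of day 28, 3 ionocyte and intercalated cell genes were called higher and 6 lower at day 28 against day 18, with a median of -0.039, and 6 endocytosis genes were called higher and 0 lower at day 60 against day 28.

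The genes whose profiles lay nearest to those of Foxi1 and of Rhcg are listed as a description of these profiles. Likeness was measured as the root mean square difference of log2 signals over the 14 arrays, after each gene was centred on its own mean. The pools of an age lie together, so that the age means set this measure. Foxi1 and Rhcg lay 1.81 apart by it, so genes this near to one could not also be near to the other. Nearest to Foxi1 outside the list were Gnao1, a G protein subunit (0.15), Dmrt2 (0.16), Rab17, a small GTPase of epithelial cells (0.19), Tnfsf10 (0.22) and Kit (0.22). Among the members that changed, Atp6v1g3 was the nearest to Foxi1 at 0.90 and Rhcg the farthest at 1.81. Nearest to Rhcg were Bcl2l15 (0.23), the lipocalin Lcn12 (0.23), the phospholipase Pla2g7 (0.25), Tmem150c (0.25) and Wfdc6b (0.26). In order of age Gnao1 had means of 9.20, 10.67, 9.50 and 9.41, and Pla2g7 had means of 5.97, 8.55, 10.60 and 11.12.

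**Figure D5:**
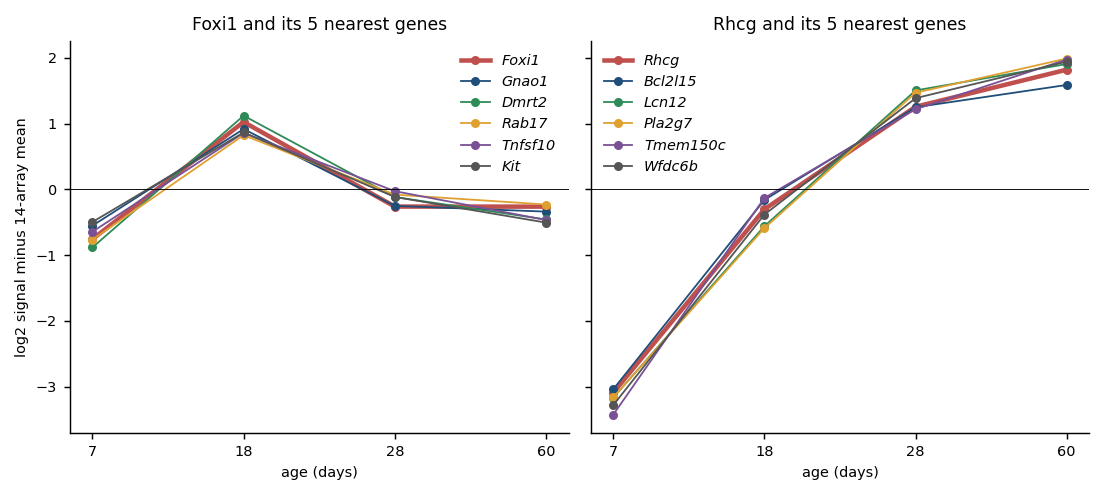
Age means of log2 signal, each gene centred on its mean over the 14 arrays, against age in days, for Foxi1 with its 5 nearest genes (left) and Rhcg with its 5 nearest genes (right), both thick red. The left set peaks at day 18, like Foxi1, and the right set is highest at day 60, like Rhcg, because each was picked for likeness.

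Markers of other cell types moved at the same steps. Of all genes 17.4% were called higher and 20.7% lower at day 18 against day 7. The shares were 10.5% and 14.3% at day 28 against day 18, and 13.8% and 11.2% at day 60 against day 28. Of 7 measured principal cell markers 5 rose and 0 fell at day 18 against day 7, 7 rose and 0 fell at day 28 against day 18, and 4 rose and 0 fell at day 60 against day 28. Their summed linear signal in order of age was 198 to 279, 5853 to 7271, 22774 to 24515 and 31295 to 32389, so it was higher at each age, like Rhcg. Here too the sums give most weight to the probe sets with the highest signals. Of 6 measured basal cell markers 3 rose and 0 fell at day 18, with summed signals of 1601 to 1737 at day 18, against 1218 to 1350 at day 7. Of 9 haploid germ cell markers 7 rose and 0 fell at day 60 against day 28 (6 and 0 without replicate 2 of day 28), and they summed to 1794 to 2467 at day 60, against 291 to 323 at day 28. Of 4 measured smooth muscle markers 2 fell at day 18 and 4 rose at day 28, with sums in order of age of 3702 to 4847, 2847 to 3723, 5131 to 6565 and 5414 to 5784. The part of these cell types in the members' values was not tested. The osteoclast-type genes, 3 of 6 measured, summed to 701 to 836, 376 to 490, 527 to 571 and 883 to 919 in order of age. Of 5 measured kidney tubule markers the defining ones Umod and Slc12a1 were below background in every pool, and Slc12a3 rose by 0.48 ± 0.16 at day 18 against day 7 and by 1.14 ± 0.15 at day 28 against day 18.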

How the data were processed

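The deposited table holds 1 log2 signal for each of 36685 transcript clusters and 14 arrays. Per the submitters' processing notes the authors used RMA and the Transcriptome Analysis Console, and versions, settings and annotation are not given in the sources used here. Per the labels' protocols, total RNA of frozen tissue, cleared of DNA with DNase, was made into biotin-labelled cDNA. RMA makes array distributions alike, so a change shared by most genes would be reduced. That the values are log2 was read from their range (0.76 to 13.81). No arrays were identical, and pools of an age correlated at 0.989 to 0.995 across genes, which are not independent.

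Symbols came from the array annotation. Of 36685 clusters 18511 had 1 symbol, 575 had several, which were left out, and 17599 were not listed. RefSeq gene identifiers matched 18394 clusters and changed no symbol. For each gene the cluster with the highest mean was used, which gave 18166 genes. The limma package (3.58.1, under R 4.3.3) fitted 1 mean for each age over the 14 arrays with lmFit and eBayes, with two-sided moderated tests, Benjamini-Hochberg adjustment over all genes in each comparison and a threshold of 0.05. Within-array differences of gene pairs were added as 14 features to the same table and adjusted with it. An error after a level is the SD of its pools, and one after a difference is the fit's SE. The labels do not say whether pools came from separate animals or litters, so p-values measure the spread between these pools. The fit was also run on simulated data with known changes, and the outcome is not reported here. Other settings covered the normalization, a filter on level, the variance model, array weights, the choice of pools and clusters, a block for the replicate number, and each pool left out in turn. Counts over gene lists without replicate 2 of day 28 were added after the data were seen.

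The members and gene lists were chosen with earlier results of these data known. Genes were named by a rule that takes all members, their relatives, up to 2 called genes per direction in each list and step, by size, of which examples are printed, and the 5 genes nearest to Foxi1 and to Rhcg. Other list genes (Car2, Car12, Adcy10, Umod, Slc12a1, Ptprc, Cd14, Tfcp2l1 and Kit as list members) are named where they describe a list.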

Additional observations from a re-analysis of the deposited data

Results flagged for a closer look

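In 168 groups of 4 pools, taken from the members, their relatives and the genes that the naming rule takes, 10 held a pool that lay far from the others, by Dixon's test at the 95% level. Chance flags about 1 in 20 such groups. Among the members this concerned Slc26a4, for which replicate 2 of day 18 had 3.57, against 3.95 to 4.00 in the other pools, all below background. Replicate 1 of day 28 was apart for Slc4a2 (6.99, others 6.88 to 6.89), Bcl2l15 (8.98, others 9.20 to 9.23), Prm2 (6.0, others 6.32) and Myocd (8.04, others 7.82 to 7.85). Replicate 1 of day 18 was apart for Atp6v1a (9.55, others 9.65 to 9.67) and Vma21 (7.12, others 6.97 to 6.98). Atp6v0e1 had 11.29 in replicate 3 of day 28 (others 11.18 to 11.19), Cst11 had 2.52 in replicate 2 of day 18 (others 2.83 to 2.86) and Smcp had 3.18 in replicate 3 of day 18 (others 3.58 to 3.64).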

How the results depend on the processing

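The 7 rises of the members at day 18 against day 7, and at day 60 against day 7, held under every alternative in which the member had a value, and no called difference of a member or pair changed sign. Without counting single pools left out, 334 member differences kept their direction and side of the threshold, 12 gained a call, 2 lost one and 2 changed sign, namely Foxi1 at day 60 against day 28 with the replicate block (0.0305) and Slc4a9 at day 60 against day 7 with quantile normalization (-0.0242). With array weights and with quantile normalization the change against Foxi1 at day 60 against day 28 turned to 0.0545 and 0.0834 for Slc26a4 and to 0.0662 and 0.0505 for Slc4a9. With single pools left out, uncalled values crossed 0 for Foxi1 (-0.0603 to 0.0361) and Slc4a9 (-0.1338 to 0.0401) at day 60 against day 28, and for Slc26a4 at the 3 steps (-0.1215 to 0.0485, -0.1437 to 0.0385 and -0.1559 to 0.0230). They also crossed 0 for the change against Foxi1 at day 60 against day 28 of Hepacam2 (-0.0004 to 0.1367), Slc26a4 (-0.1807 to 0.0772) and Slc4a9 (-0.1627 to 0.1004), and for Slc4a9 against Slc4a2 at day 28 against day 18 (-0.1509 to 0.0560). At day 60 against day 28 the count of members called higher, 1, went to 2 with a filter at the median gene level, with an intensity trend and robust hyperparameters, and with the fit limited to the pools of both ages, each time by Atp6v1g3 (adjusted p = 0.0258, 0.0411 and 0.0495). The count called lower went to 0 with the replicate block (Atp6v1b1, adjusted p = 0.0539), which also gave Slc4a9 a call at day 18 against day 7 (0.32, adjusted p = 0.0446) and ended that of Hepacam2 at day 60 against day 18 (0.0847), and the unequal changes of a member and Foxi1 went to 1 with the trend. The causes were not tested. With each pool left out in turn, members called higher ranged from 1 to 2 at day 28 against day 18 and from 1 to 2 at day 60 against day 28, members called lower at day 60 against day 28 ranged from 0 to 1, and pairs of relatives called at that step ranged from 1 to 2. Replicate numbers did not pair the pools: over 19 pairs with the same number the correlation of deviations ran from -0.143 to 0.046, and 3 of 14 arrays correlated best with one of their own number. Signals near or below the background level limit Slc4a9 and Slc26a4 at every age, and Atp6v0d2, Hepacam2 and Atp6v1g3 at day 7.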
